A study of Homo sapiens with 6 samples.

Results

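Genes of amino acid transport were examined in SW872 cells, an established human liposarcoma line, after treatment with Apatinib, a small-molecule tyrosine kinase inhibitor directed at VEGFR2. The genes were chosen by symbol with earlier results of these data known, so counts among them are descriptions. All 10 (SLC7A5, SLC3A2, SLC7A11, SLC43A1, SLC1A5, SLC1A4, SLC1A3, SLC38A1, SLC38A2 and SLC6A9) were found among the 57773 genes of the deposited count table. RNA was sequenced from 3 libraries of cells given 18 μM Apatinib for 24 h and 3 libraries of untreated cells (control). All 6 libraries come from the same line, grown in RPMI-1640 with 10% FBS, so the comparison is that of a drug against no treatment in a single cell model, and no vehicle is named for the control. The total counts were between 17275850 and 18081919 in the Apatinib group and between 17043314 and 22067558 in the control group.

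Cells import amino acids through families of membrane proteins with different substrates. SLC7A5 (LAT1) and SLC7A11 (xCT) are light chains that reach the membrane as partners of the SLC3A2 heavy chain (4F2hc, CD98). SLC7A5 with SLC3A2 carries leucine and other large neutral amino acids, and SLC7A11 with SLC3A2 exchanges extracellular cystine for glutamate, which feeds glutathione synthesis. SLC1A5 (ASCT2) and SLC1A4 (ASCT1) exchange small neutral amino acids such as alanine and serine, and SLC1A5 carries glutamine as well. SLC38A1 and SLC38A2 take up glutamine and other small neutral amino acids with sodium, SLC6A9 (GlyT1) carries glycine, SLC1A3 (EAAT1) carries glutamate, and SLC43A1 (LAT3) carries branched-chain amino acids. Several of these genes are known targets of ATF4, the transcription factor that is translated when amino acids run short or the endoplasmic reticulum is stressed.

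Several facts about the libraries bear on all results. Control replicates 1 and 2 differed far less than other replicates of either group did. The chi-square of their counts, averaged over genes, was 2.27, against 18.2 to 44.5 for the other pairs, where sampling noise alone gives about 1 if every count is a separate fragment. The methods call the replicates biological, and p values measure only the spread between these libraries. Of the mesenchymal markers, VIM was at 881 to 1263 FPKM and FN1 at 273 to 440 FPKM. COL1A1, COL1A2, THY1 and LUM were far lower, at 3.49 to 4.57, 4.79 to 7.16, 1.02 to 1.81 and 0.435 to 0.883 FPKM. DCN had at most 1 count per library. Of the adipocyte markers, PPARG was present at 19.7 to 27.1 FPKM, while ADIPOQ and FABP4 had 0 counts in every library. Of the epithelial markers, KRT18 was at 133 to 184 FPKM and EPCAM and CDH1 had 7 counts or fewer. The summed FPKM of the epithelial list was 186 to 221 with Apatinib and 154 to 186 in the control. The sums of the mesenchymal list (1447 to 1654 FPKM against 1174 to 1280) and of the adipocyte list (23.1 to 32.3 against 21.8 to 24.4) also reached higher with Apatinib, and that of the blood and endothelial list was lower (1.34 to 1.83 against 2.26 to 2.39), with PTPRC at 0 counts. KDR of that list, the gene of VEGFR2, had only 4 to 11 counts per library. On these lists KRT8, LPL and VWF passed the test as higher and CDH5 as lower, and with control replicates 1 and 2 summed their edgeR FDR was 0.0886, 0.0807, 0.121 and 0.0719. The part of these markers in the results below was not tested, and in bulk RNA fewer cells of a type and less RNA per cell cannot be told apart.

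With Apatinib, 4 of the 10 transporter genes were higher and none was lower. The risers were SLC7A5 (2.09-fold), SLC3A2 (2.05-fold), SLC1A5 (1.76-fold) and SLC1A4 (1.72-fold), which form the leucine exchanger with its heavy chain and both neutral amino acid exchangers of the SLC1 family. SLC6A9, SLC1A3, SLC43A1, SLC38A1, SLC38A2 and SLC7A11 did not pass the test. A differentially expressed gene (DEG) is here a gene whose log2 fold change (log2FC) exceeds 0.5 in size at an FDR below 0.05. The FDR is that of the quasi-likelihood test in edgeR, adjusted by Benjamini and Hochberg's method over the 16290 genes left by a filter on low counts. All 10 transporter genes passed that filter. Of all genes tested, 11.5% were DEGs, 5.97% higher and 5.48% lower. At an unadjusted p under 0.05, 6 of the transporters were higher and 1 was lower, against 30.6% of all genes in either direction, and at an FDR below 0.05 with no fold limit, 12.9% of all genes passed. DESeq2 called 4 transporters higher and 1 lower, against 6.73% and 7.05% of the 14901 genes to which it gave an adjusted p. Of the edgeR calls it did not call SLC3A2, and it called SLC6A9 as higher and SLC1A3 as lower. The median log2FC of the 10 transporters was 0.57, against 0.00 for all genes tested. Without Apatinib replicate 2 it was 0.31, against -0.01. In 6 of the 10, every Apatinib library was above every control library, which was the case for 17.5% of all genes tested, and in 1 of the 10 (SLC1A3) every Apatinib library was below, against 15.7%.

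All 4 genes lost their calls when the near-identical controls were summed, a setting that also has fewer samples. With control replicates 1 and 2 summed and counted as 1 sample, the log2FC values were 1.11 for SLC7A5, 1.04 for SLC3A2, 0.83 for SLC1A5 and 0.79 for SLC1A4, as large as before, but the edgeR FDR values were 0.0854, 0.134, 0.120 and 0.129 and 0 of the 10 genes were DEGs (207 genes of the whole table were higher and 85 lower). The count was also 0 without control replicate 1 and without control replicate 2. Without Apatinib replicate 1 or Apatinib replicate 2, SLC7A5 was the 1 higher DEG left. Without control replicate 3 there were 4 higher DEGs. The cause of these losses was not tested. Levels are given below in CPM, counts relative to a library size scaled by the TMM method, and a log2FC above 0 stands for higher expression with Apatinib.

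**Figure D1:**
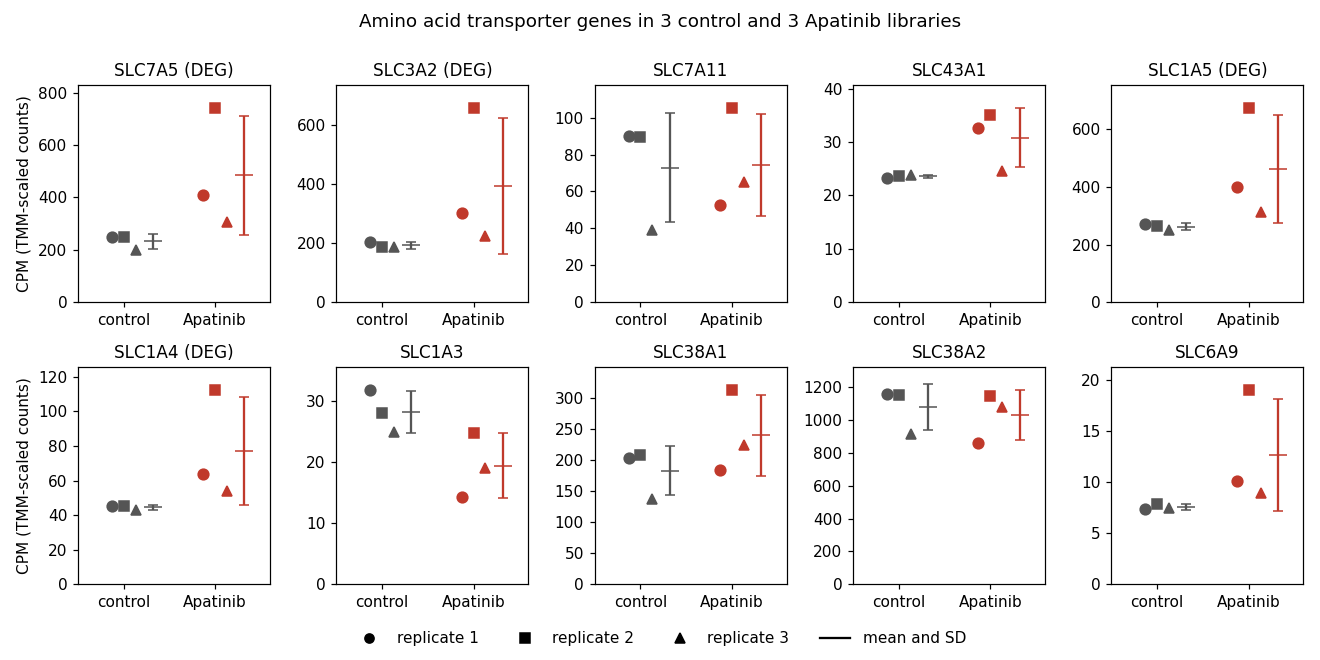
CPM of the 10 transporter genes in each library, in a panel per gene with its own axis starting at 0. Circles, squares and triangles are replicates 1, 2 and 3 of the control (grey) and the Apatinib group (red), and the bars give the mean and SD of the 3 libraries. Apatinib replicate 2 is the highest of the 6 libraries for SLC7A5, SLC3A2, SLC1A5, SLC1A4, SLC6A9, SLC38A1, SLC43A1 and SLC7A11.

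SLC7A5 (ENSG00000103257) had 410, 740 and 306 CPM in Apatinib replicates 1, 2 and 3 and 248, 249 and 198 CPM in control replicates 1, 2 and 3. Every Apatinib library was above every control, and the Apatinib libraries differed among themselves more than the controls did. The Apatinib mean of 485 ± 227 CPM compares with a control mean of 232 ± 29.2 CPM (SD, n = 3 each), and the log2FC was 1.07 (standard error 0.260, 95% interval 0.50 to 1.63, edgeR FDR = 0.0256). Without Apatinib replicate 2 it was 0.63, with an edgeR FDR of 0.0293. Leaving out control replicate 1 or 2 gave edgeR FDR values of 0.0842 and 0.0796. The pseudogenes SLC7A5P1 and SLC7A5P2, whose sequences could share reads with SLC7A5, held 15 to 25 and 0 counts per library.

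SLC3A2 (ENSG00000168003), the heavy chain, had 302, 656 and 225 CPM after Apatinib and 205, 186 and 187 CPM in the control. The lowest Apatinib library lay only a little above the highest control, and replicate 2 was far above the rest. The Apatinib mean of 394 ± 230 CPM compares with a control mean of 192 ± 10.6 CPM (SD, n = 3 each). The log2FC was 1.03 (standard error 0.302, 95% interval 0.37 to 1.70, edgeR FDR = 0.0453). The value dropped to 0.46 without Apatinib replicate 2 (edgeR FDR = 0.0551). DESeq2, the program named in the methods, gave 1.04 and an FDR of 0.127, so SLC3A2 was not a DEG with that program. The edgeR FDR was 0.0555 without Apatinib replicate 1, 0.123 without control replicate 1 and 0.141 without control replicate 2.

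SLC1A5 (ENSG00000105281) had 401, 672 and 312 CPM after Apatinib and 272, 264 and 249 CPM in the control. The control libraries spanned a narrow range that all Apatinib libraries exceeded. The log2FC was 0.82 (standard error 0.225, 95% interval 0.33 to 1.31, edgeR FDR = 0.0377). Without Apatinib replicate 2 it was 0.45, below the fold change limit (edgeR FDR = 0.0465). The edgeR FDR rose to 0.0556 without Apatinib replicate 1, 0.114 without control replicate 1 and 0.121 without control replicate 2.

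SLC1A4 (ENSG00000115902), which encodes the closest relative of SLC1A5, was lower in level and moved by a similar amount. It had 63.8, 112 and 54.2 CPM after Apatinib and 45.4, 45.2 and 42.9 CPM in the control, again without overlap. The log2FC was 0.79 (standard error 0.224, 95% interval 0.29 to 1.28, edgeR FDR = 0.0422), and 0.41 without Apatinib replicate 2 (edgeR FDR = 0.0545). Its edgeR FDR was 0.0540 without Apatinib replicate 1 and 0.131 without either control replicate 1 or control replicate 2.

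SLC6A9 (ENSG00000196517), the glycine transporter, had an estimate close to that of SLC1A4 at a much lower level. It had 10.1, 19.0 and 8.99 CPM after Apatinib and 7.39, 7.92 and 7.51 CPM in the control, without overlap, with replicate 2 again the highest. The log2FC was 0.74 (standard error 0.256, 95% interval 0.18 to 1.30, edgeR FDR = 0.0769). It did not pass with edgeR, and DESeq2 gave 0.74 with an FDR of 0.0350. Without Apatinib replicate 2 the estimate was 0.33 (edgeR FDR = 0.175), and without Apatinib replicate 3 it was 0.94 (edgeR FDR = 0.0409). SLC6A9 had 128 to 337 counts per library, and CCDC24, whose exons overlap it on the opposite strand in GENCODE 29, had 184 to 249. Whether the counting used the strand is not given in the sources used here.

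SLC1A3 (ENSG00000079215), the glutamate transporter, was the only gene of the 10 whose control libraries all lay above its Apatinib libraries. It had 14.3, 24.8 and 19.1 CPM after Apatinib and 31.7, 28.0 and 24.9 CPM in the control, and the groups were separated by a narrow gap between Apatinib replicate 2 and control replicate 3. In FPKM those same libraries overlapped, at 6.51 and 5.27. The log2FC was -0.54 (standard error 0.191, 95% interval -0.96 to -0.12, edgeR FDR = 0.0831), so the gene did not pass with edgeR. DESeq2 gave the same value with an FDR of 0.0498. Without Apatinib replicate 2 the estimate was -0.75 (edgeR FDR = 0.0277), and without Apatinib replicate 1 it was -0.36 (edgeR FDR = 0.224).

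SLC43A1 (ENSG00000149150), a facilitated carrier of branched-chain amino acids, had 32.7, 35.0 and 24.6 CPM after Apatinib against 23.2, 23.7 and 23.8 CPM in the control. The controls were almost equal, and Apatinib replicate 3 lay just above them. The log2FC was 0.38 (standard error 0.151, 95% interval 0.05 to 0.72, edgeR FDR = 0.111). Without Apatinib replicate 3 it was 0.53 with an edgeR FDR of 0.0368.

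The sodium-coupled glutamine carriers and the cystine exchanger had no separation between the groups. SLC38A1 (ENSG00000111371) had 184, 312 and 224 CPM after Apatinib and 203, 208 and 138 CPM in the control, with a log2FC of 0.39 (95% interval -0.05 to 0.84, edgeR FDR = 0.218). Its lowest Apatinib library lay below control replicates 1 and 2. SLC38A2 (ENSG00000134294) had 856, 1146 and 1076 CPM after Apatinib and 1158, 1152 and 915 CPM in the control, with a log2FC of -0.07 (95% interval -0.39 to 0.26, edgeR FDR = 0.799). For SLC38A2 the interval leaves room for a fall by 0.39 or a rise of 0.26 on the log2 scale.

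SLC7A11 (ENSG00000151012) had 52.7, 105 and 64.9 CPM after Apatinib and 90.0, 89.7 and 39.0 CPM in the control. Both groups were wide and covered nearly the same range, with the highest value in Apatinib replicate 2 and the lowest in control replicate 3. The log2FC was 0.03 (standard error 0.305, 95% interval -0.64 to 0.70, edgeR FDR = 0.959), so changes of some size in either direction were not detectable with these libraries. The sign turned when a single library was left out, to -0.30 without Apatinib replicate 2 and to -0.27 without control replicate 3. SLC7A11-AS1, which overlaps SLC7A11 on the opposite strand, had 12 to 51 counts per library against 851 or more for SLC7A11.

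**Figure D2:**
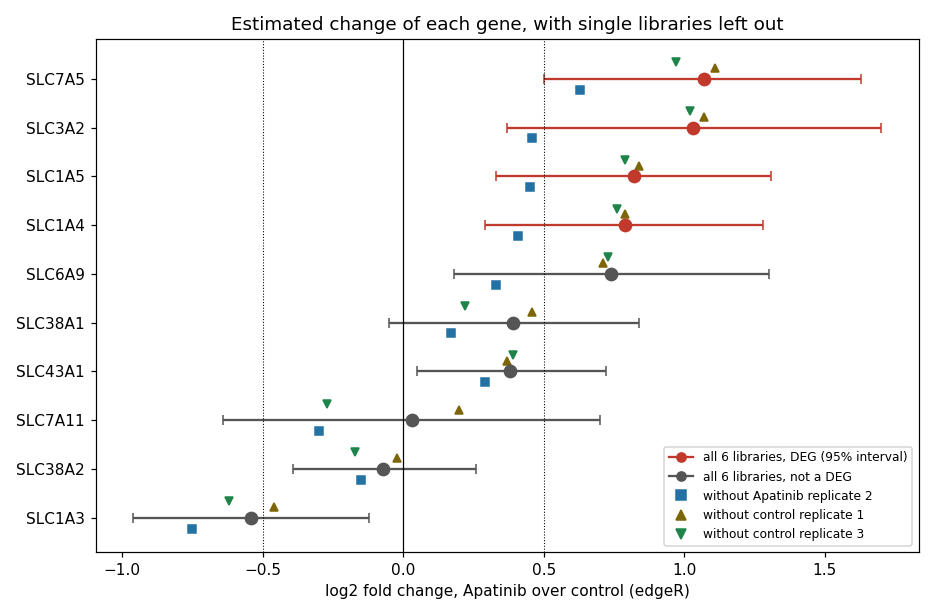
Log2FC (Apatinib over control, edgeR) of each gene from all 6 libraries, with 95% intervals (red for DEGs, grey for the others), and with Apatinib replicate 2 (squares), control replicate 1 (upward triangles) or control replicate 3 (downward triangles) left out. Dotted lines mark the limit of 0.5 in size. Without Apatinib replicate 2 the estimate of SLC7A5 is 0.63 and those of SLC3A2, SLC1A5 and SLC1A4 are 0.46, 0.45 and 0.41.

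Much of the spread in the Apatinib group came from replicate 2. In that library, 7 of the 10 transporter genes had over 1.5 times the mean CPM of Apatinib replicates 1 and 3, which held for 8.81% of all genes tested, and the median ratio of all genes tested was 0.995. The ratio was 2.49 for SLC3A2, 2.07 for SLC7A5, 1.99 for SLC6A9, 1.91 for SLC1A4, 1.88 for SLC1A5, 1.79 for SLC7A11 and 1.53 for SLC38A1. SLC1A3, SLC43A1 and SLC38A2 had ratios of 1.49, 1.22 and 1.19. SLC7A11 and SLC38A1 thus stood high in this library although neither passed the test between the groups. In control replicate 3, 4 of the 10 had under 0.8 times the mean of control replicates 1 and 2, which held for 20.9% of all genes tested. These were SLC7A11 (0.434), SLC38A1 (0.670), SLC38A2 (0.792) and SLC7A5 (0.796), while SLC43A1, SLC6A9, SLC3A2 and SLC1A4 had ratios between 0.947 and 1.01. These ratios were computed after the values had been seen.

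The level of each transporter was read from the deposited FPKM values, which divide by transcript length and so allow genes to be compared. For some genes outside the 10, FPKM and counts disagreed, and the reason was not tested. SRXN1 had 22 to 54 counts but 21.0 to 31.7 FPKM, and CEBPA had 0 counts but 0.0579 to 0.319 FPKM. In the control, SLC38A2 was the most abundant at 185 ± 30.3 FPKM (SD, n = 3), followed by SLC3A2 at 71.5 ± 6.98, SLC1A5 at 67.7 ± 4.92, SLC7A5 at 41.3 ± 5.85 and SLC38A1 at 17.3 ± 4.04 FPKM. SLC3A2 and SLC1A5 overlapped in range, and the other neighbors among these 5 did not. SLC1A4, SLC43A1, SLC1A3 and SLC7A11 followed at 6.76, 6.75, 6.47 and 6.11 FPKM, each overlapping the next, and SLC6A9 was lowest at 1.94 FPKM, 95.4-fold below SLC38A2. With Apatinib the means kept this order except that SLC7A11 (6.44 FPKM) and SLC1A3 (4.47 FPKM) changed places. SLC38A2 was at 176 ± 33.9, SLC3A2 at 150 ± 90.8, SLC1A5 at 123 ± 53.7 and SLC7A5 at 87.8 ± 44.1 FPKM (SD, n = 3), and each of these overlapped the next in range. The FPKM of the 10 genes summed to 460, 858 and 465 in Apatinib replicates 1, 2 and 3, and to 454, 428 and 350 in control replicates 1, 2 and 3, so that Apatinib replicate 2 stood apart and the other 2 Apatinib libraries lay just above the highest control.

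**Figure D3:**
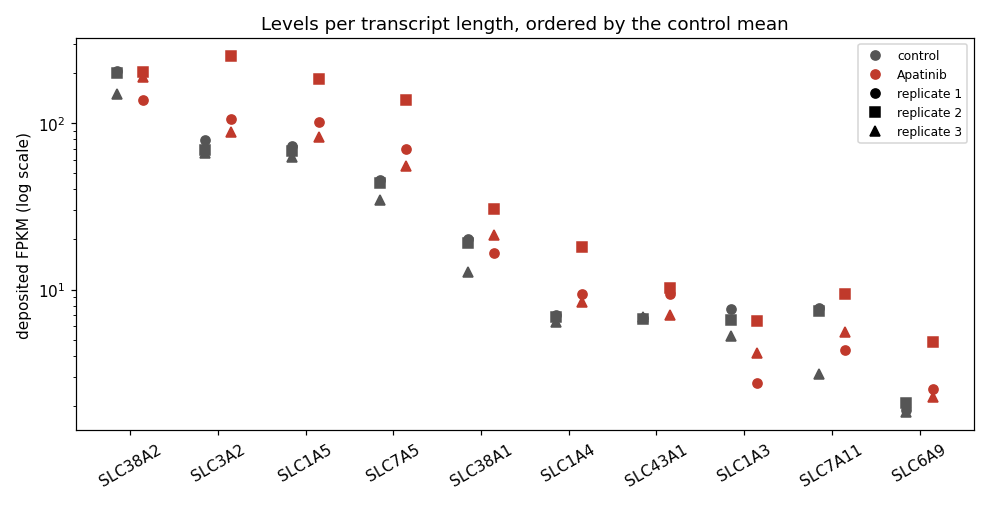
Deposited FPKM (log axis) of the 10 genes in each library, ordered by the control mean, with the control in grey and Apatinib in red and a symbol for each replicate. SLC38A2 is near 185 FPKM and SLC6A9 near 1.94 FPKM in the control, and the Apatinib means of SLC3A2, SLC1A5 and SLC7A5 are 150, 123 and 87.8 FPKM against 71.5, 67.7 and 41.3 FPKM in the control.

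Since SLC7A5 and SLC7A11 both depend on SLC3A2, the transcript ratio of light to heavy chain was computed in each library from FPKM. The ratio of SLC7A5 to SLC3A2 was 0.662, 0.544 and 0.624 in Apatinib replicates 1, 2 and 3 and 0.575, 0.633 and 0.524 in control replicates 1, 2 and 3. The groups overlapped, and the difference in mean log2 ratio was 0.08 (exact two-sided permutation test, p = 0.60), where 3 against 3 libraries cannot give a p below 0.1. The ratio of SLC7A11 to SLC3A2 was 0.0412, 0.0371 and 0.0623 after Apatinib, against control values of 0.0979, 0.108 and 0.0470. Control replicate 3 lay among the Apatinib libraries, and the other controls lay above all of them. The difference in mean log2 ratio was -0.79 (exact two-sided permutation test, p = 0.200), and -1.17 without control replicate 3 and -0.57 without control replicate 2. Messenger RNA ratios say nothing of how much of each protein pair is at the membrane.

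**Figure D4:**
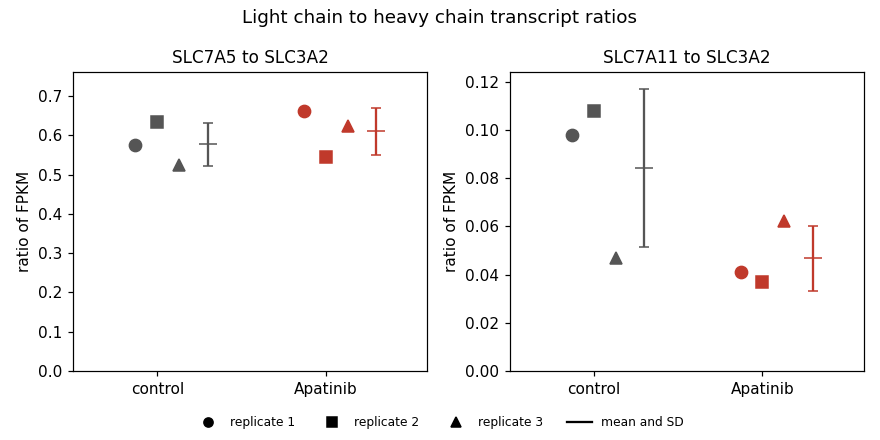
FPKM of SLC7A5 (left) and SLC7A11 (right) divided by that of SLC3A2 in each library, on axes that start at 0, with the mean and SD of each group. The SLC7A5 ratio lies between 0.524 and 0.662 in all 6 libraries, and the SLC7A11 ratio is 0.0979 and 0.108 in control replicates 1 and 2 and at most 0.0623 in the other 4.

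The sequences at the transcription starts of these genes were searched for 3 short motifs: TGATGNAA, the composite element bound by ATF4 with a C/EBP partner; TGACNNNGC, the antioxidant response element bound by NRF2 (NFE2L2); and CACGTG, the E-box bound by MYC and its relatives. RefSeq gives 18 windows, each from 250 bases before a start to 50 bases after it, for 9 of the 10 genes in build GRCh38.p14 (the table has no window for SLC7A11). The composite element was found, on either strand, in 5 of these windows, 1 each for SLC1A4, SLC1A5, SLC3A2, SLC38A1 and SLC1A3, against 3.62% of all 35116 windows. Genes with several windows have more places to match, and by gene 4.46% of all symbols held it. The antioxidant element was found in 4 windows (13.3% of all windows) and the E-box in 3 (7.26% of all windows), by gene 4 and 3 of the 9 against 16.1% and 8.77% of all symbols. The 30 bases around each composite element are shown first because the genes that rose include known ATF4 targets, in the direction of transcription, 5′ to 3′, with the motif in capitals. Distances are those of the first base of the match from the start of its own window, and the matches of SLC1A4 and SLC38A1 run across the start.
SLC1A4, chr2:64989381-64989410, + strand, 7 bases before the start: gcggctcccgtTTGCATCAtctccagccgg
SLC1A5, chr19:46784893-46784922, - strand, 97 bases before the start: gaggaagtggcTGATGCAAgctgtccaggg
SLC3A2, chr11:62881719-62881748, + strand, 37 bases after the start: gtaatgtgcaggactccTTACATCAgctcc
SLC38A1, chr12:46266502-46266531, - strand, 4 bases before the start: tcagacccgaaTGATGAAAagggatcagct
SLC1A3, chr5:36596357-36596386, + strand, 220 bases before the start: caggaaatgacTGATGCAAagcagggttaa

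The remaining matches in the genes that rose were as follows, with the antioxidant element in the first 3 lines and the E-box after it, again in the direction of transcription with the match in capitals. The first match of SLC7A5 runs across the start, and no match printed here overlaps another. Both of these SLC1A5 matches lie in the window of a different start of the gene from that of its composite element.
SLC3A2, chr11:62881652-62881681, + strand, 37 bases before the start: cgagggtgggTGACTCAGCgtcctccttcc
SLC7A5, chr16:87869490-87869519, - strand, 2 bases before the start: gcggggttccTGACGCAGCtgcgggcggcg
SLC1A5, chr19:46787385-46787414, - strand, 111 bases before the start: cctggatcttGCGAGGTCAgctcccgctcc
SLC7A5, chr16:87869620-87869649, - strand, 130 bases before the start: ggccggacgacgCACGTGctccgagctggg
SLC1A5, chr19:46787326-46787355, - strand, 50 bases before the start: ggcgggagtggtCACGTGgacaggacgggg
The composite element was thus present for SLC1A4, SLC1A5 and SLC3A2, which rose, and for SLC38A1 and SLC1A3, which were not DEGs, and was not in the window of SLC7A5. A match is a sequence of letters and not a bound site, and elements outside these windows were not searched.

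The wider set of transporters was described with the same fit, in which 5.97% of all genes tested were higher DEGs and 5.48% lower DEGs. Of 32 other plasma membrane amino acid transporter genes, 15 passed the filter on low counts, 1 was a higher DEG and 1 a lower DEG, and their median log2FC was 0.11 (-0.06 without Apatinib replicate 2). The higher DEGs numbered 2 with DESeq2 or with no filter on low counts, 3 without Apatinib replicate 3, and 0 without Apatinib replicate 1, control replicate 1 or control replicate 2. Among all genes, higher DEGs numbered 1003, 1298, 1034, 523, 192 and 215 in these settings, in the same order. SLC7A8 (LAT2), another light chain of SLC3A2, was at 22.0 ± 7.04 CPM after Apatinib against 11.6 ± 0.996 CPM (SD, n = 3 each) and rose with a log2FC of 0.92 (edgeR FDR = 0.0223). Unlike the 4 transporters above, SLC7A8 was lowest in Apatinib replicate 2 among the Apatinib libraries, at 15.1 CPM against 29.2 and 21.8. SLC36A4, an amino acid carrier of high affinity, fell from 49.9 ± 6.95 to 33.2 ± 4.0 CPM (log2FC -0.59, edgeR FDR = 0.0280). With the close controls summed, the edgeR FDR of these 2 genes was 0.0912 and 0.129. Of 9 lysosomal transporters and 11 mitochondrial carriers tested, 0 were DEGs with edgeR or with DESeq2 over all 6 libraries, and the medians were 0.15 and 0.04. Without Apatinib replicate 3, 1 lysosomal gene was a higher DEG and 1 mitochondrial carrier a lower DEG. At an unadjusted p under 0.05 in edgeR, 2 lysosomal genes were higher, and 3 mitochondrial carriers were higher and 1 was lower, where 30.6% of all genes passed in either direction. SLC7A14 and SLC15A4 of the lysosomal list (log2FC 0.46 and 0.45) and the mitochondrial SLC25A13 (-0.49), named after their values were seen, passed the edgeR FDR (0.0453, 0.0420 and 0.0314) but not the fold limit. CTNS, the lysosomal cystine exporter, had a log2FC of 0.15 (edgeR FDR = 0.506).

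Of 20 regulators and markers of the amino acid response, 4 were higher DEGs and 0 lower, against 5.97% and 5.48% of all genes tested. The median of the list was 0.70, and 0.10 without Apatinib replicate 2. The number of higher DEGs on this list was 11 with no filter on low counts, 7 without Apatinib replicate 3 and 2 without control replicate 1 or control replicate 2. In these settings 1298, 1034, 192 and 215 of all genes were higher DEGs, in the same order. ATF4 (ENSG00000128272) had 416, 473 and 366 CPM after Apatinib and 245, 246 and 283 CPM in the control, a log2FC of 0.70 (edgeR FDR = 0.0104, and 0.0722 with the close controls summed). ASNS, asparagine synthetase and a textbook ATF4 target, had 263, 519 and 223 CPM against 118, 123 and 68.8 CPM, a log2FC of 1.70 (edgeR FDR = 0.00847, and 0.0352 with the close controls summed). NUPR1 and TRIB3, stress-induced regulators, rose by 1.89 and 1.54 on the log2 scale, with an edgeR FDR of 0.0263 and 0.0828 once the close controls were summed. DESeq2 did not call TRIB3 (FDR = 0.0618). TRIB3 was at 274, 699 and 190 CPM after Apatinib and had a log2FC of 0.81 without replicate 2, the highest library there as it was for ASNS. DDIT3 (CHOP) had a log2FC of 0.77 that did not pass (edgeR FDR = 0.205), and -0.03 without Apatinib replicate 2.

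Of 6 genes of serine, glycine and asparagine synthesis, 4 were higher DEGs, against 5.97% of all genes tested, with a median of 1.17. Apart from ASNS, these were PHGDH, PSAT1 and SHMT2, with log2FC values of 1.32, 1.46 and 1.01. With the close controls summed the edgeR FDR was 0.0328 for PSAT1 and 0.0692 for SHMT2. PHGDH, the entry enzyme of serine synthesis, had 232, 227 and 188 CPM against 90.4, 83.6 and 84.4 CPM, and Apatinib replicate 2 was not the highest library. Its edgeR FDR was 4.37e-04, and 0.00538 with the close controls summed.

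On the list of cystine use, glutathione and NRF2 markers, which bears on SLC7A11, 3 of 13 genes were higher DEGs and 0 lower. Of all genes tested, 5.97% and 5.48% were so, and the median of the list was 0.14. Without Apatinib replicate 1, control replicate 1 or control replicate 2, 1 gene was a higher DEG, where 523, 192 and 215 of all genes were. CBS, which makes cystathionine from homocysteine, rose by 1.02, HMOX1 by 0.69 and the glutathione peroxidase gene GPX4 by 0.59 on the log2 scale. NFE2L2 itself had a log2FC of -0.45 (edgeR FDR = 0.165), and without Apatinib replicate 2 it was a lower DEG at -0.70 (edgeR FDR = 0.0342). The estimate for GCLM, a subunit of glutamate-cysteine ligase and an NRF2 target, was -0.04 (edgeR FDR = 0.869). With the close controls summed, the edgeR FDR was 0.0263 for CBS, 0.142 for HMOX1 and 0.106 for GPX4.

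Of 11 genes of glutamine and glutamate use, which bear on SLC1A5, SLC38A1 and SLC38A2, 2 were higher DEGs (ASNS and the aspartate aminotransferase GOT1, 0.54) and 1 was a lower DEG (PPAT of purine synthesis, -0.57), with a median of 0.22. Of 21 genes tested on the list for the sensing of amino acids by mTORC1, 1 was higher and 1 lower, with a median of 0.10. Among all genes tested, 5.97% were higher DEGs and 5.48% lower DEGs. RRAGD, a Rag GTPase, rose by 1.44 on the log2 scale at a low level, with 2.21, 3.33 and 3.43 CPM against 0.693, 1.59 and 1.01 CPM. SAMTOR, the sensor of S-adenosylmethionine (named C7orf60 in the deposited table), had a log2FC of -0.51. With the close controls summed, RRAGD had an edgeR FDR of 0.0495 (0.0959 without control replicate 1), SAMTOR of 0.179, GOT1 of 0.162 and PPAT of 0.186. SAMTOR, GOT1, PPAT and SLC36A4 also lost their calls without Apatinib replicate 2 (edgeR FDR = 0.0837, 0.0905, 0.0632 and 0.0579), at log2FC values of -0.46, 0.41, -0.60 and -0.53. With each library left out in turn, the glutamine list held 1 to 3 higher and 0 to 1 lower DEGs, and the mTORC1 list 0 to 1 in each direction.

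**Figure D5:**
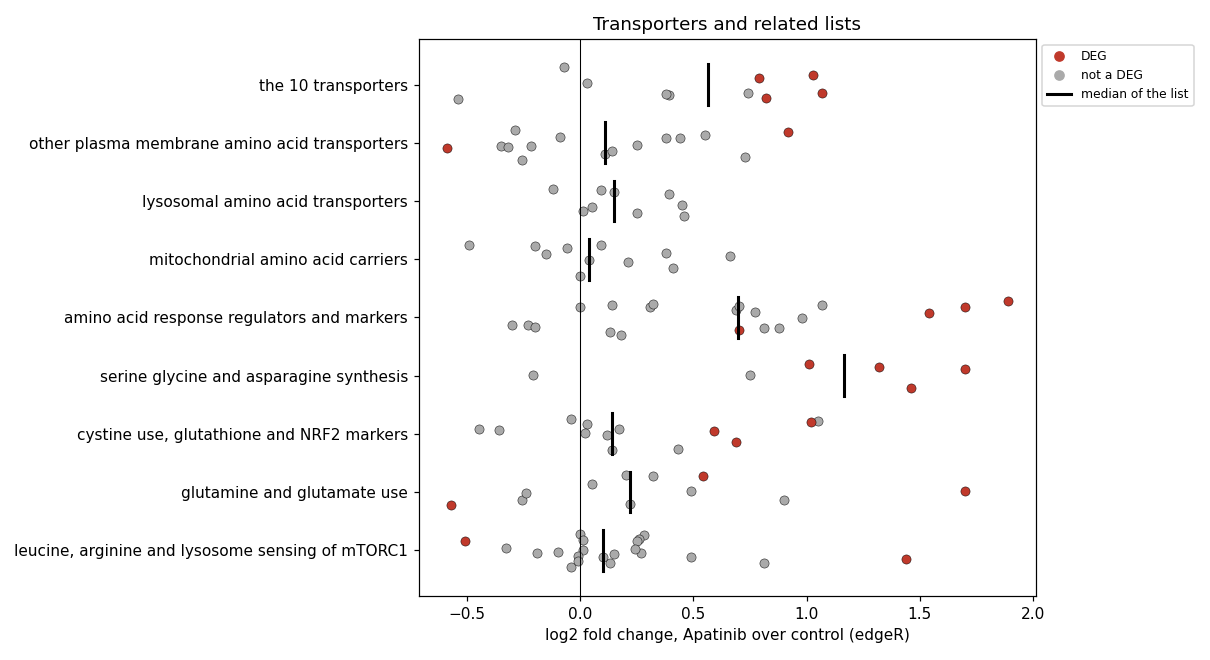
Log2FC (Apatinib over control, edgeR) of each gene tested, by list, with DEGs in red, the other genes in grey, the vertical position within a list set at random and a black bar at the median of the list. The 10 transporters have a median of 0.57, the other plasma membrane transporters of 0.11 and the serine, glycine and asparagine synthesis genes of 1.17, which become 0.31, -0.06 and 0.89 without Apatinib replicate 2 (not drawn). ASNS appears on 3 lists.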

How the data were processed

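RNA of SW872 cells (3 Apatinib and 3 control libraries) was analysed from the deposited gene counts, whole numbers the authors did not normalize, and from the FPKM values the authors deposited for each library. The submitters' processing notes name CASAVA, STAR 2.7.1a and hg19. The counting program, the annotation and the use of strand are not given in the sources used here. The table of Apatinib replicate 1 holds 1 further column, headed with a control's label, which was left out.

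Counts were filtered with filterByExpr (16290 genes kept), scaled by TMM and tested with the quasi-likelihood test of edgeR 4.0.16 in R 4.3.3. Intervals (95%) use its standard errors. Alternatives were DESeq2 1.42.0, RLE scaling, other filters, glmTreat, an FDR limit alone, the replicate block, controls 1 and 2 summed, each library left out and limma 3.58.1 on log2(FPKM + 1) or log2(FPKM + 0.1). The fits were tested on simulated data. Whether equal replicate numbers pair the groups is not stated in the labels. Deviations from the group mean correlated weakly at equal numbers (-0.259, 0.0808 and -0.220), which with 3 libraries per group cannot exclude a pairing. Named genes were the 10 transporters, up to 6 DEGs with the smallest p per list, and ATF4, DDIT3, NFE2L2, ASNS, GCLM and CTNS. Members and lists were chosen with earlier results of these data known, so their counts are descriptions. SLC7A11-AS1, SLC7A5P1, SLC7A5P2, CCDC24 and the markers were named for checks. Gene positions are not given because the reference at hand is of another build, except for promoter windows matched by symbol (RefSeq, GRCh38.p14).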

Additional observations from a re-analysis of the deposited data

How the results depend on the processing

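Of the 10 transporters, 8 kept their direction under all 16 other fits, SLC7A11 and SLC38A2 did not, and no gene was a DEG in all of them. SLC7A11, SLC38A1 and SLC38A2 were DEGs in none. In 7 of the other settings, 0 transporters were DEGs.

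With each library left out in turn, the number of transporters that were DEGs ranged from 0 to 6 higher and from 0 to 1 lower, and that of all genes from 192 to 1102 higher and from 83 to 1492 lower. The log2 fold changes ranged from 0.63 to 1.31 for SLC7A5, 0.46 to 1.32 for SLC3A2, 0.45 to 1.04 for SLC1A5, 0.41 to 0.99 for SLC1A4, 0.33 to 0.94 for SLC6A9, -0.75 to -0.36 for SLC1A3, 0.29 to 0.53 for SLC43A1, 0.17 to 0.55 for SLC38A1, -0.17 to 0.05 for SLC38A2 and -0.30 to 0.23 for SLC7A11, and the ratios to SLC3A2 from 0.01 to 0.16 for SLC7A5 and from -1.17 to -0.57 for SLC7A11.

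SLC6A9 and SLC1A3 became DEGs with DESeq2 (0.74 and -0.54), without a filter on low counts (0.75 and -0.53) and with the replicate block (0.67 and -0.57), which each gave 1 lower transporter. Whether the numbers pair the libraries is not known. Under the block 5 transporters were higher, as were 10 genes of the amino acid response list and 2 other plasma membrane transporters. Of all genes, 1047 were higher and 1168 lower under the block. SLC3A2 lost its call with DESeq2 (1.04).

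SLC7A5, SLC3A2, SLC1A5 and SLC1A4 lost their calls, leaving 0 transporters, without control replicate 1, without control replicate 2 and in 5 further settings. With controls 1 and 2 summed they were 1.11, 1.04, 0.83 and 0.79 (207 higher and 85 lower genes in all). With limma they were 0.97, 0.90, 0.77 and 0.67 on log2(FPKM + 1) (556 and 240), the same without a filter on low values (7 and 2), and 0.98, 0.91, 0.77 and 0.73 on log2(FPKM + 0.1) (578 and 232). With glmTreat, which tests against the limit itself, they were 1.07, 1.03, 0.82 and 0.79 (60 and 14). Leaving out control replicate 3, which also leaves 2 controls, kept 4 transporters as higher DEGs. The cause of the losses was not tested, except that glmTreat sets a stricter null. RLE scaling and a minimum of 10 counts changed no call among the transporters. The lowest transporter, SLC6A9, had 128 to 337 counts per library, and how depth limits precision was not tested. Over all settings the higher DEGs of the amino acid response list numbered 0 (limma without a filter) to 11 (edgeR without a filter).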
